A study of Mus musculus with 46 samples.

Results

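The histone variant H3.3 was profiled by ChIP-Seq in the cKit+ and the cKit- cells that were obtained at the end of hematopoietic transdifferentiation, and the peaks and genes of these fractions were compared. They are 2 of the 46 samples of the study, and 2 of the 16 H3.3 libraries with peak lists. Both came from mouse embryonic fibroblasts (MEFs) that were freed of cells carrying blood surface markers, transduced with retroviruses for the hematopoietic factors Scl (Tal1), Lmo2, Runx1 and Bmi1, grown on inactivated OP9 stromal cells with blood cytokines, among them SCF, IL3 and FLT3L, and labelled as fully transdifferentiated. The labels of these fractions differ only in the sort for cKit. OP9 cells are also of mouse origin, so that reads from any carried over would not be told apart. The members were chosen by the sorting label alone, giving 28076 peaks in cKit+ and 25637 peaks in cKit-. Each fraction was 1 library with its own input library, so no difference could be set against a spread between replicates, and intervals below cover counting error only. For reference, MEF was the library of the same experiment before induction and D4 that of day 4, whereas D0 was the fibroblast library of the other experiment of the study, in which Oct4, Sox2, Klf4 and c-Myc were used.

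H3.3 is placed into chromatin outside DNA replication, mostly by the chaperone Hira in gene bodies, promoters and enhancers of active genes. A region rich in H3.3 is therefore often one whose nucleosomes turn over quickly. cKit, encoded by Kit, is the receptor of stem cell factor (SCF). It is carried by blood stem and progenitor cells and by mast cells, and is lost by most blood cells as they mature. Fibroblast genes, such as those of collagens and of the contractile skeleton, mark the cells of origin.

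To show what the compared regions look like, 300 bases around the centre of a peak are given for 6 introns on build mm9, plus strand. Only peaks whose printed window was free of exons were taken. Among these, Zeb2 holds the highest shared peak of cKit- in the listed fibroblast genes, Vim their highest peak of cKit+ only, and Csf2rb the highest peak of cKit- only in the listed hematopoietic genes. Ptprc and Lcp2 (cKit- only) and Col5a2 (cKit+ only) were added after their values were seen, because the gene comparisons below turn on them. Capitals mark matches, on either strand, to a short motif of GATA factors (AGATAA), RUNX (TGTGGT), PU.1 (GAGGAAGT), C/EBP (TTGCNNAA), AP-1 (TGANTCA) or TEAD (GGAATG).
Zeb2, chr2:44951540-44951839: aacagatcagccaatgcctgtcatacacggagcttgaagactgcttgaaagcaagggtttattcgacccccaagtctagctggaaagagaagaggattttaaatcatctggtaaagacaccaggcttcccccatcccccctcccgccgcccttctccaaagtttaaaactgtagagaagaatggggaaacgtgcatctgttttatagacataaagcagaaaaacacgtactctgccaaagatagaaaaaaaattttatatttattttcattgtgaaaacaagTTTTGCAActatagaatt
Vim, chr2:13503375-13503674: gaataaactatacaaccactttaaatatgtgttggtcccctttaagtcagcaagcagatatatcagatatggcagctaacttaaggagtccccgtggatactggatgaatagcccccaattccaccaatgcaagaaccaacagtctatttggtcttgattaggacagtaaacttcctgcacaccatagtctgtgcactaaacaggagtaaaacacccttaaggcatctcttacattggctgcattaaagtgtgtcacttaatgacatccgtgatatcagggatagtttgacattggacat
Csf2rb, chr15:78173238-78173537: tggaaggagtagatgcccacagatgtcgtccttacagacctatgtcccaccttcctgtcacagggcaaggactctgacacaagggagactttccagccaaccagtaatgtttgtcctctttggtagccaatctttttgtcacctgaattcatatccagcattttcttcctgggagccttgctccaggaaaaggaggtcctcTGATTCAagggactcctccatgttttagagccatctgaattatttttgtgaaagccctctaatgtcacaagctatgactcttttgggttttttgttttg
Ptprc, chr1:140032389-140032688: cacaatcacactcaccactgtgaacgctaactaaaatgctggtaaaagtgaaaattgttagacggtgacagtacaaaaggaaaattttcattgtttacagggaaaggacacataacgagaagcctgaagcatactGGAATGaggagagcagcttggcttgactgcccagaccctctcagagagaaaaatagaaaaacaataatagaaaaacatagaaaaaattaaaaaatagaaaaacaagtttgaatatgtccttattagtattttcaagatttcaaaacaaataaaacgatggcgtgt
Lcp2, chr11:33957575-33957874: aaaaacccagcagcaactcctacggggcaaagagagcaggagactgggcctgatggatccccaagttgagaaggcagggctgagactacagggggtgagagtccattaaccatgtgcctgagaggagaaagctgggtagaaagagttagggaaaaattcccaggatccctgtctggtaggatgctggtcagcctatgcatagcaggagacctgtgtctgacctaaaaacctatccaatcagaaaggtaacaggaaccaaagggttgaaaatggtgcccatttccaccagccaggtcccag
Col5a2, chr1:45546707-45547006: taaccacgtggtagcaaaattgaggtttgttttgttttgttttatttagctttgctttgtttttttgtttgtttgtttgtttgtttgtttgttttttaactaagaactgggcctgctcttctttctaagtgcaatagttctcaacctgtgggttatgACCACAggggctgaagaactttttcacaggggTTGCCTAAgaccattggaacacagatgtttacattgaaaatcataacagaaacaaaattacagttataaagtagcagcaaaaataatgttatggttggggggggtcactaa
The Zeb2 window held 1 C/EBP match, Csf2rb 1 AP-1 match, Ptprc 1 TEAD match and Col5a2 1 RUNX and 1 C/EBP match, while the windows of Vim and Lcp2 held none of these letters. The peaks around them were wide and low. That of Zeb2 was 2829 bp long in cKit- with 184.5 tags against 87.5 scaled input tags, that of Vim 1902 bp with 241 against 109.5, and that of Csf2rb 4674 bp with 267 against 108.9, so that each was 2.11 to 2.45 times its input.

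The enrichment of both fractions was the weakest of all H3.3 libraries. Of the tags, 1.65% in cKit+ and 2.31% in cKit- fell into peaks, against 4.88% (D16S+) to 37.2% (D4) in the other 14 H3.3 libraries. The median fold of a peak over its input was 2.19 in cKit+ and 2.37 in cKit-, where 2 was the lowest fold allowed, and the lowest median among the other 14 libraries was 2.61 (MEF). In cKit+, 7862 peaks (28.0%) had a fold under 2.1, and 786 (2.80%) reached 3. In cKit-, 2846 (11.1%) were under 2.1, and 1712 (6.68%) reached 3. A peak in cKit+ rested on a median of 44 tags against 20.1 input tags, and a peak in cKit- on 35.5 against 15. Most peaks had the smallest possible length of 500 bp, 65.1% in cKit+ and 57.3% in cKit-.

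**Figure D1:**
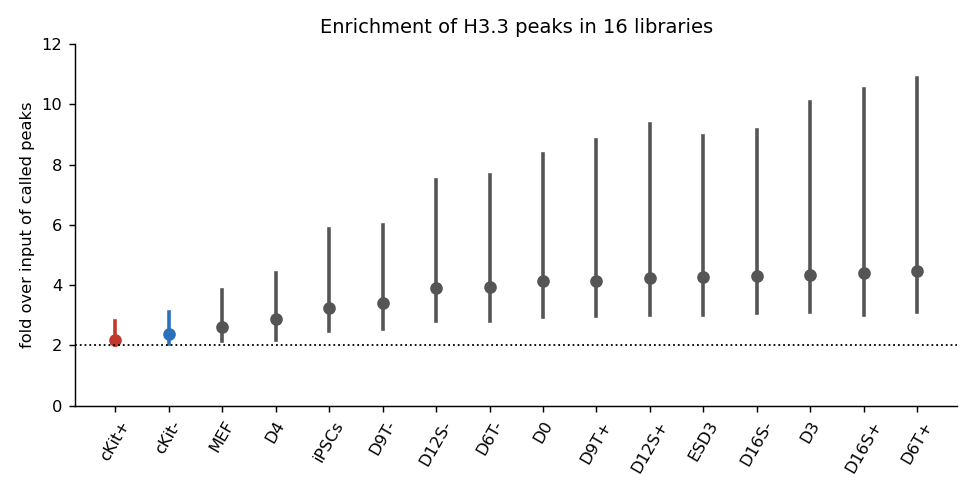
Fold over input (y axis) of the called peaks in the 16 H3.3 libraries (x axis, ordered by median); points are medians, lines run from the 5th to the 95th percentile, and the dotted line is the lowest fold allowed. cKit+ (red) and cKit- (blue) have the lowest medians, 2.19 and 2.37, and lie nearest to the limit.

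The fractions also differed in depth, with 91.8 M tags in cKit+ and 51.6 M tags in cKit-. The peak caller's own limit for a first call was 38 tags per 500 bp in cKit+ and 25 in cKit-, which after scaling to 10 M tags is a score of 4.14 and 4.85. The scores listed for called peaks can lie slightly under it, as for Gata2 with 3.98 in cKit+. On this scale the limit was lower in cKit+ than in cKit-. The part of depth, weak enrichment and input in the differences below was not tested. Here the score of a peak is its tag count scaled to 10 M tags, with the input not subtracted, and its sum over the peaks of a gene is the summed score used below. A region without a peak is one that did not pass these limits, which is not the same as a region without H3.3.

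To see how many regions the fractions had in common, peaks that overlapped by at least 1 bp were counted as shared. Of the cKit+ peaks, 4736 (16.9%, 95% Wilson interval 16.4% to 17.3%) were shared, and 23340 were found in cKit+ only. Of the cKit- peaks, 4696 (18.3%, 17.9% to 18.8%) were shared, and 20941 were found in cKit- only. Either list covered under 1% of the genome, 0.684% by cKit+ and 0.688% by cKit-, and 12.2% of the base pairs of cKit+ peaks lay in cKit- peaks. When at least 0.5 of the length of a peak had to be covered, 10.6% of the cKit+ peaks and 10.3% of the cKit- peaks were shared.

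The share rose strongly with the score of a peak, which is a tag count and was larger for longer peaks. Peaks of each fraction were split into deciles by score. In the lowest decile of cKit+ peaks 6.98% were shared, and in the highest 42.4% (40.6% to 44.2%). In cKit- the same shares were 9.48% and 42.5% (40.6% to 44.4%). In cKit- each decile was above the one before, and so it was in cKit+ apart from the second decile, with 6.87%. The median length was 500 bp in the lowest decile of either fraction, and 1143 bp in cKit+ and 1436 bp in cKit- in the highest. Longer peaks meet a rule of 1 bp more readily, and the part of length in this rise was not tested. Shared peaks were longer, with a median of 627 bp in cKit+ and 638 bp in cKit- against 500 bp for exclusive peaks in either fraction, and had higher scores (6.05 against 4.63 in cKit+, 8.34 against 6.59 in cKit-). They did not stand out more from the input, since their median fold was 2.16 against 2.19 in cKit+ and 2.30 against 2.37 in cKit-.

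**Figure D2:**
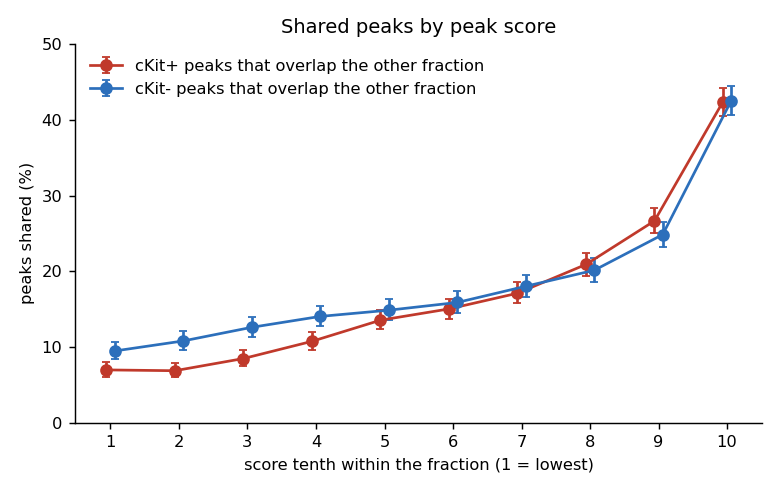
Percent of peaks that overlap a peak of the other fraction (y axis) in deciles of the peaks by score (x axis, 1 is the lowest) for cKit+ (red) and cKit- (blue); bars are 95% Wilson intervals. The share climbs from 6.98% and 9.48% in the lowest decile to 42.4% and 42.5% in the highest.

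Restricting both lists to an equal number of their highest-scoring peaks kept the shares between 15.9% and 18.6%. Of the top 1000 peaks by score, 16.5% in cKit+ and 15.9% in cKit- were shared, and of the top 10000, 18.6% and 18.3%. At a fold of at least 3 over input, only 14 peaks of each fraction were shared, 1.78% of 786 and 0.818% of 1712. A fold limit does not favour peaks of high score. The median fold was 2.24 in the lowest and 2.16 in the highest score decile of cKit+, and 2.68 and 2.19 in cKit-.

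By position, peaks past the end of a gene were shared most often, 24.6% in cKit+ and 28.1% in cKit-. Promoter peaks followed in cKit+ with 22.2% (19.7% to 24.9%), against 18.3% (16.2% to 20.7%) in cKit-. Intron peaks, 60.1% of all peaks in cKit+ and 57.1% in cKit-, were shared in 15.8% and 18.1%. The promoter share of all peaks was 3.49% (3.28% to 3.71%) in cKit+ and 4.59% (4.34% to 4.86%) in cKit-, intervals that do not overlap.

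Exclusive peaks often lay close to a peak of the other fraction, as counted on the assembled chromosomes. Within 5 kb of a cKit- peak lay 44.5% of the exclusive cKit+ peaks, where such stretches make up 7.85% of the genome. For exclusive cKit- peaks, 48.4% lay within 5 kb of a cKit+ peak, against 8.54% of the genome. Within 50 kb these shares were 87.5% and 88.6%, for 32.2% and 33.4% of the genome.

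The other sorted pairs of the study shared more peaks. With the top 25637 peaks of every library, 17.8% of the cKit+ and 17.7% of the cKit- peaks were shared. The lowest share among the pairs sorted on days 6, 9, 12 and 16 of the other experiment was 33.7% (D16S-) and the highest 66.1% (D12S+). Their peaks also had higher folds and covered more of the genome, 25.1 to 94.97 Mb against 16.5 Mb in cKit+ and 17.8 Mb in cKit-, and wider lists overlap more readily. No interval of these shares reached those of cKit+ (17.3% to 18.3%) and cKit- (17.2% to 18.1%).

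Most exclusive peaks of either fraction lay where H3.3 was also found in fibroblasts or on day 4, libraries that were not used to define them. D4 peaks overlapped 65.0% (64.4% to 65.7%) of the cKit+ only peaks and 61.9% (61.3% to 62.6%) of the cKit- only peaks, while covering 10.3% of the genome. D0 peaks, from separately prepared fibroblasts, overlapped 46.0% and 43.0% and covered 5.02%. MEF peaks overlapped 22.9% (22.3% to 23.4%) and 21.6% (21.0% to 22.2%) and covered 2.21%. The shares of shared peaks were higher in each of these libraries, 81.1% in D4, 66.0% in D0 and 40.0% in MEF. The cKit- only peaks thus lay in MEF peaks 1.27 percentage points less often than the cKit+ only peaks (interval -2.05 to -0.50) and in D4 peaks 3.10 points less often (-4.00 to -2.20). Both differences were small beside the gap between shared and exclusive peaks.

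**Figure D3:**
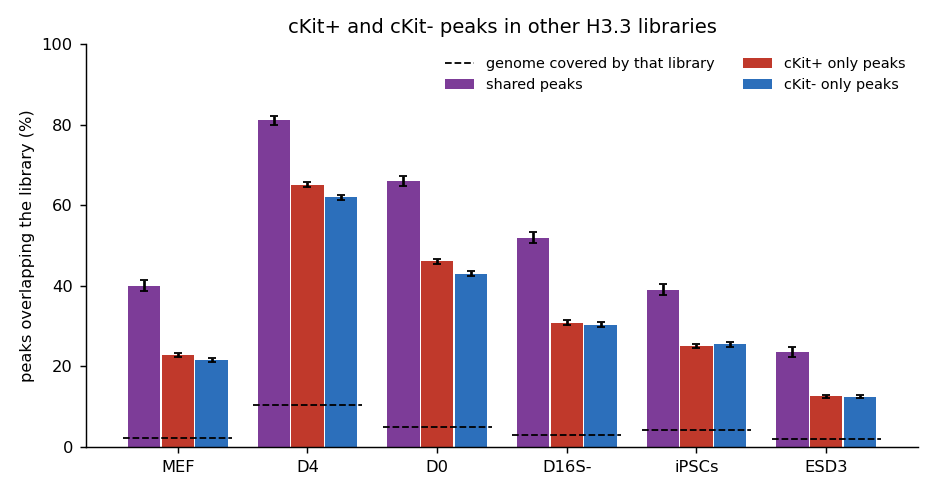
Percent (y axis) of shared peaks (purple, as cKit+ peaks), cKit+ only peaks (red) and cKit- only peaks (blue) that overlap an H3.3 peak of MEF, D4, D0, D16S-, iPSCs and ESD3 (x axis); bars carry 95% Wilson intervals, and the dashed line is the share of the genome those peaks cover. Shared peaks are highest in every library, from 23.5% in ESD3 to 81.1% in D4, and both kinds of exclusive peaks stand well above the dashed line and close to each other.

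Pluripotent cells gave lower shares. Peaks of iPSCs overlapped 25.03% of the cKit+ only and 25.5% of the cKit- only peaks for 4.13% of the genome, and those of the embryonic stem cells ESD3 12.6% and 12.5% for 1.87%. H3K4me3, a mark of promoters, overlapped 16.2% (15.7% to 16.7%) of the cKit+ only and 19.3% (18.8% to 19.9%) of the cKit- only peaks in D0 fibroblasts. H3K36me3, a mark of transcribed gene bodies, overlapped 32.0% (31.4% to 32.6%) and 25.5% (24.9% to 26.1%). The cKit+ only peaks were thus more often in stretches that carry H3K36me3 in fibroblasts, and the cKit- only peaks more often in those with H3K4me3. In none of the other 14 H3.3 libraries were 4316 cKit+ only peaks (18.5%), 4517 cKit- only peaks (21.6%) and 366 shared peaks (7.73%).

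The base composition of exclusive peaks was close to that of the genome. Windows of 500 bp at their centres held 43.4% G and C in cKit+ only and 42.8% in cKit- only peaks, against 41.8% over all 5116421 windows of that length in the genome and 48.8% in MEF peaks. The AP-1 letters were found in 14.4% (13.99% to 14.9%) of cKit+ only, 15.6% (15.1% to 16.1%) of cKit- only and 13.4% of shared windows, in 14.3% of all genomic windows, and in 19.9% of MEF and 22.8% of D4 windows. For RUNX the shares were 34.4%, 34.3% and 34.2% against 31.2% in the genome and 40.0% in D4. PU.1, whose gene Sfpi1 serves myeloid cells, had 3.16% (2.95% to 3.39%) in cKit+ only and 3.52% (3.28% to 3.78%) in cKit- only windows, with 3.01% in the genome. Its share was 3.68% in shared, 3.69% in MEF and 3.83% in D4 windows, so the cKit- only share was not above that of fibroblast peaks. GATA letters were in 27.7%, 27.8% and 27.5% of the windows against 30.0% in the genome. A match is only these letters and not a site at which a factor was shown.

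By gene, the fractions were far more alike than by peak. A gene was called bound when at least 1 peak lay between its promoter and its end, a peak being given to the gene of the nearest start site. Of 22359 protein-coding genes, cKit+ bound 7281 (32.6%) and cKit- 6886 (30.8%), and 4979 (22.3%) were bound in both. Genes of cKit+ only numbered 2302 (10.3%), and genes of cKit- only 1907 (8.53%). Thus 68.4% (67.3% to 69.4%) of the cKit+ genes and 72.3% (71.2% to 73.4%) of the cKit- genes were shared. Of the 4979 shared genes, 2242 had in each fraction a peak that overlapped one of the other fraction, and 2737 did not.

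Long genes were bound more often. The median length was 38.0 kb for genes bound in both, 20 kb for cKit+ only, 22.1 kb for cKit- only and 9.30 kb for genes bound in neither. Of the 5590 shortest genes 13.2% were bound in cKit+ and 12.6% in cKit-, and of the 5590 longest 52.2% and 51.6%. The lists below differ in length from all genes, whose median was 15.4 kb. It was 36.4 kb for fibroblast, 22.5 kb for hematopoietic, 11.2 kb for lymphoid and 5.73 kb for housekeeping genes. The part of length in the shares of these lists was not tested. Exclusive genes rested on little, since 70.7% of the cKit+ only and 76.1% of the cKit- only genes had a single peak, against 31.7% (counted in cKit+) and 36.5% (in cKit-) of the shared genes. Of the cKit+ only genes 73.4% (71.6% to 75.2%) were bound in MEF, and of the cKit- only genes 63.8% (61.6% to 65.9%). In D4 these shares were 90.4% and 85.2%. Bound in neither MEF nor D4 were 107 cKit+ only genes, 168 cKit- only genes and 67 genes of both. Out of 6526 genes without a MEF or D4 peak, that is 1.64%, 2.57% and 1.03%, so that cKit+ bound 2.67% and cKit- 3.6% of them.

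Where both fractions bound a gene, cKit- tended to have the higher summed score. The median ratio of cKit- to cKit+ over the 4979 shared genes was 1.27, and 1.35 with the input subtracted. In 63.6% of them the cKit- sum was higher, in 27.4% it was at least 2 times the cKit+ sum, and in 12.2% the cKit+ sum was at least 2 times that of cKit-. Values of single lists are read against these shares below.

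Hematopoietic genes were bound somewhat more often in cKit-, and their summed scores were higher there. Of 91 hematopoietic genes, 38 were bound in cKit+ (41.8%, 32.2% to 52.0%) and 47 in cKit- (51.6%, 41.5% to 61.7%), with 30 in both, 8 in cKit+ only and 17 in cKit- only. The difference, cKit+ minus cKit-, was -9.89 percentage points with an interval of -23.7 to 4.53, which includes no difference. Over all genes it was 1.77 points in the other direction. Of the 30 genes bound in both, 25 (83.3%) had the higher sum in cKit-, and 18 (60%) a sum at least 2 times that of cKit+, against 27.4% of all shared genes. Their median ratio of cKit- to cKit+ was 2.76, and 2.70 with the input subtracted. Of the 24 hematopoietic genes without a MEF or D4 peak, cKit+ bound 2 and cKit- 5. In such bulk samples, more cells of a type and more H3.3 per cell cannot be told apart. Kit itself, on chromosome 5 at 75970941 to 76052747, had no peak in either fraction or in MEF, and a summed score of 43.0 in D4, so the fractions could not be told apart at the locus of the sorted marker.

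**Figure D4:**
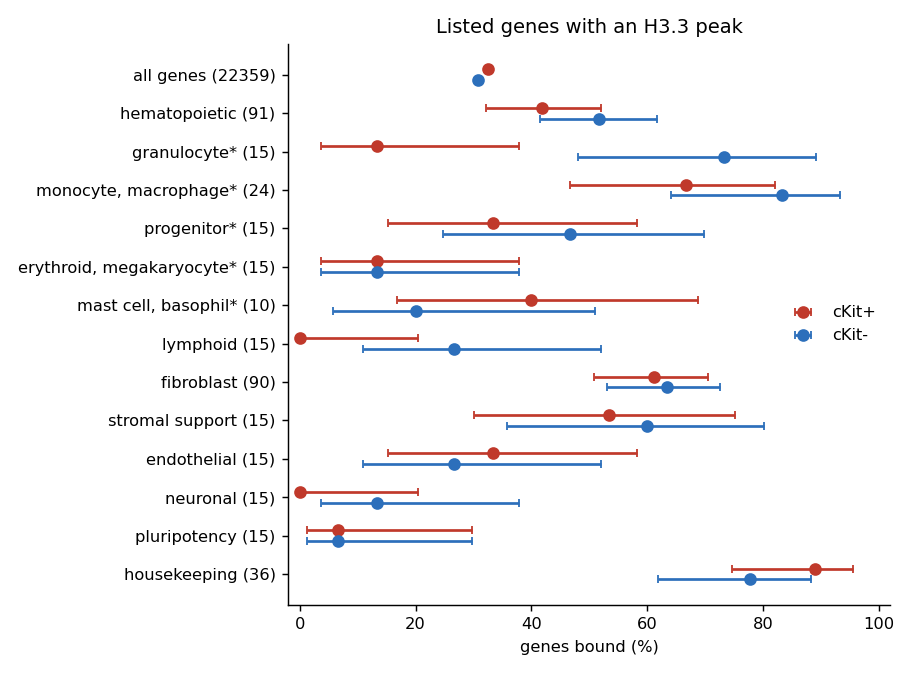
Percent of genes with at least 1 H3.3 peak (x axis) in cKit+ (red) and cKit- (blue) for all genes and for marker lists (y axis, number of genes in brackets); bars are 95% Wilson intervals, and an asterisk marks lists written after gene values had been seen. The 91 hematopoietic genes stand at 41.8% and 51.6% and the 90 fibroblast genes at 61.1% and 63.3%, and the widest gap is that of the granulocyte list, 13.3% against 73.3%.

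Among the 29 hematopoietic transcription factors, 15 were bound in cKit+ (51.7%, against 32.6% of all genes) and 18 in cKit- (62.1%, against 30.8%). Etv6, needed for blood stem cells in the marrow, had a summed score of 189.6 in cKit+ (95% Poisson interval of its tags 180.9 to 198.9) and 266.6 in cKit- (252.5 to 280.9), from 30 peaks in each. Myb, a factor of progenitor growth, had 38.4 (34.5 to 42.6) in cKit+ and 154.1 (143.4 to 165.1) in cKit-. Its intervals were far apart, and 4 of its 6 cKit+ peaks overlapped a cKit- peak. Fli1, a factor of blood and vessel cells, had 59.95 against 86.8. Ikzf1, a factor of lymphoid and myeloid cells, had 4.14 from 1 peak in cKit+ and 29.8 from 4 peaks in cKit-. Nfe2 had 7.79 against 32.8 and Mef2c 13.3 against 32.9. Runx1 was alike in both, with 117.2 (110.4 to 124.5) from 20 peaks in cKit+ and 115.1 (106.1 to 124.8) from 13 in cKit-.

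In cKit- only, Sfpi1 had a summed score of 19.5 from 2 peaks, Cebpe, a factor of late granulocytes, 19.7 from 1 peak at its promoter that overlapped a cKit+ peak not counted for this gene, Erg 13.3, Meis1 10.8 and Lyl1 6.40. In cKit+ only were Gata2, which serves stem and mast cells, with 3.98, Zfpm1 with 4.74 and Irf8 with 4.96, each from 1 peak near the lowest scores called. Gata2 and Zfpm1 had summed scores of 190.7 and 409.0 in D4, values from better enriched libraries that are given beside them without a comparison. The peaks given to Irf8 and Lyl1 lay outside those genes, nearer to their start sites than to any other. No peak in either fraction was given to Gata1, Gfi1b, Klf1, Runx3, Hlf or Cebpa.

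The 4 delivered factors were bound in cKit- throughout and 3 of them in cKit+. Tal1 had no peak in cKit+ and 24.0 (20 to 28.7) in cKit-, from a peak at chr4:114728641-114729141 across its start and a larger one at chr4:114735664-114736541 at the annotated end of a shorter transcript. At this gene the input of cKit- was 1.63 times the median of its peaks. Lmo2 had 10.6 from 2 intron peaks in cKit+ and 8.14 from 1 peak at its end in cKit-. Bmi1 had 4.2 and 13.9, and 1 of its 2 cKit- peaks lay outside the gene. None of the peaks at Tal1, Lmo2 and Bmi1 overlapped one of the other fraction. The fourth factor, Runx1, is described above.

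Among 23 receptors and surface proteins, 9 were bound in cKit+ (39.1%, against 32.6% of all genes) and 14 in cKit- (60.9%, against 30.8%), a difference of -21.7 points (-45.7 to 6.66). Ptprc, which encodes the pan-leukocyte antigen CD45, had no peak in cKit+ and 45.4 (39.8 to 51.6) in cKit-. It held 5 intron peaks spread over chr1:140027093-140055317, none in MEF and a summed score of 6.20 in D4. Cd53, a tetraspanin of leukocytes, had 16.1 (13.6 to 18.95) in cKit+ and 95.7 (87.5 to 104.6) in cKit-, with 0 in MEF and 17.8 in D4, and both of its cKit+ peaks overlapped cKit- peaks. At Cd53 the input density was 1.76 times the median of cKit- peaks and 1.35 times that of cKit+ peaks. Csf2rb, the shared beta chain of the IL3 and GM-CSF receptors, had 27.6 (24.3 to 31.2) and 86.7 (78.8 to 95.1). The integrin chains Itgam and Itgb2, which form the CD11b/CD18 receptor of myeloid cells, had 8.94 against 43.8 and 17.9 against 51.4.

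Cxcr4, the receptor of CXCL12, had 13.1 in cKit- only, Il3ra 15.9, Itga4 12.9 and the progenitor receptor Flt3 9.02. Cd34, a marker of progenitors and of vessels, had 9.64 in cKit+ and 9.02 in cKit-, and Csf1r 9.59 and 11.6. The one receptor gene of cKit+ only was Csf2ra with 4.25. Itga2b, the platelet integrin CD41, was given 19.5 in cKit+ and 5.62 in cKit-, but all 4 of its cKit+ peaks lay outside the gene. Epor, Slamf1, Cd48 and Cd93 had no peak in either fraction.

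Signalling proteins of blood cells were bound equally often in both fractions, while their sums leaned to cKit-. Of 18 genes, 9 were bound in each fraction (50%, against 32.6% of all genes in cKit+ and 30.8% in cKit-). Of the 8 bound in both, 6 had at least 2 times the sum in cKit- (75%, against 27.4% of all shared genes). Lcp2, the adaptor SLP-76, had 8.12 (6.33 to 10.1) in cKit+ and 83.4 (75.7 to 91.6) in cKit-, from 2 and 7 peaks, with 0 in MEF and 6.04 in D4. Dock2, an activator of Rac in leukocytes, had 4.09 from 1 peak and 64.8 from 9. The Src family kinase Lyn had 61.5 (56.5 to 66.8) and 162.8 (151.9 to 174.1), Lcp1 7.25 and 41.2, and the lipid phosphatase Inpp5d 23.5 and 56.7. Fermt3 with 12.4 was bound in cKit+ only, and Arhgdib with 19.2 in cKit- only. Ptpn6 had 8.82 and 6.30.

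Of 21 products of differentiated blood cells, 5 were bound in cKit+ (23.8%) and 6 in cKit- (28.6%), near the 32.6% and 30.8% of all genes. The granule enzymes Mpo, Elane and Prtn3, made by early granulocytes, had 21.2 (17.5 to 25.7), 9.99 (7.53 to 13.2) and 12.9 (9.90 to 16.3) in cKit- and no peak in cKit+. None of them had a peak in MEF or D4, though Prtn3 had a summed score of 14.8 from 2 peaks in D0 fibroblasts. The peaks of Elane and Prtn3 lay at their promoters, at chr10:79348240-79349133 and chr10:79340987-79341890. Cybb, the membrane subunit of the phagocyte oxidase, had 21.9 (18.1 to 26.3) from 4 intron peaks in cKit- alone. In cKit+ only were lysozyme, Lyz2, with 5.94, Ctss with 9.21 and Fcer1g with 4.58, the last from a peak outside the gene. Cd68, of phagocyte lysosomes, had 18.9 and 60.8, with 230.9 in MEF. Globin genes, Slc4a1, Alas2, Pf4 and Vwf had no peak in either fraction.

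**Figure D5:**
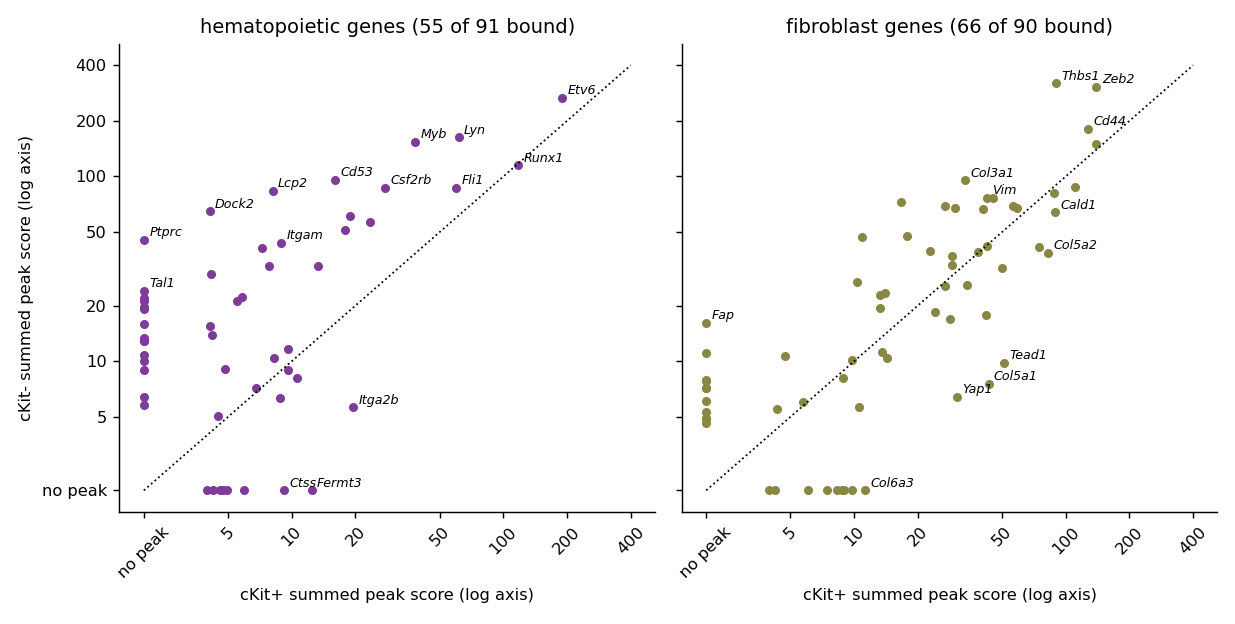
Summed peak score per 10 M tags of hematopoietic (left) and fibroblast (right) genes with a peak in at least 1 fraction, cKit+ on the x axis and cKit- on the y axis, both logarithmic, with genes lacking a peak set at the position marked no peak; the dotted line is equality. Most hematopoietic genes lie above the line, 25 of the 30 bound in both, whereas fibroblast genes lie on either side of it, with 27 of 46 above.

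Lists for single blood lineages were written after gene values had been seen and are of descriptive use only. How far they separate the fractions, and how many of their genes lack a peak in MEF and D4, can come from the choice of genes. Of 15 granulocyte genes, 2 were bound in cKit+ (13.3%, against 32.6% of all genes) and 11 in cKit- (73.3%, against 30.8%), Cebpe with its overlapping peak included. S100a8 had 38.2, Ctsg 33.2, Ngp 32.5, Ltf 30.2, S100a9 17.3 and Camp 14.8 in cKit-, with nothing in cKit+. Only Camp of these 6 had a MEF peak (12.7) and none had a D4 peak. The peaks of S100a8, Ctsg and Ngp were 2123, 2454 and 2081 bp long with folds of 2.04, 2.21 and 2.08, so that they were long but not steep. At S100a8 the input density was 1.76 times the median of cKit- peaks. Lyz2 was the one granulocyte gene of cKit+ only, and Lcn2, Chi3l3 and Mmp8 had no peak.

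Of 24 monocyte and macrophage genes, 16 were bound in cKit+ (66.7%) and 20 in cKit- (83.3%), above the 32.6% and 30.8% of all genes, and all 14 bound in both had the higher sum in cKit-, with a median ratio of 4.16. The chemokine receptor Ccr1 had 17.4 and 71.7, and both of its cKit+ peaks overlapped cKit- peaks. Its input density was 1.41 times the median of cKit+ peaks and 1.69 times that of cKit- peaks. The chemokines Ccl6 and Ccl9 had 4.14 and 53.4, and 4.30 and 56.7. The Fc receptor Fcgr2b had 8.83 and 39.2, Pilra 5.72 and 23.7, and Lilrb4 4.69 and 19.6. Nearly equal were Ccr2 with 8.82 and 9.02, Cd14 with 8.66 and 8.92, and Ly86 with 4.63 and 4.75. In cKit- only were the lectins Clec4n with 22.6, Clec4d with 22.5 and Clec7a with 7.47. Ccr1, Ccl6, Clec4n, Clec4d, Clec7a, Pilra and Lilrb4 had no peak in MEF or D4. All but Clec7a rank high in cKit- among genes without such a peak, values known when the list was written. At Ccr1, Ccl6, Ccl9, Pilra and Lilrb4 every cKit+ peak overlapped a cKit- peak. Each of these genes also had cKit- peaks that overlapped none of cKit+, which add to the gap between the sums. Of the 4 cKit- peaks at Ccr1, 2 overlapped a cKit+ peak, and of the 3 at Ccl9, 1.

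For the erythroid, mast cell and progenitor lists the intervals of the difference included 0. Of 15 erythroid and megakaryocyte genes 2 were bound in each fraction, Itga2b and Gp5, and most of the peaks given to them lay outside these genes. Of 10 mast cell and basophil genes 4 were bound in cKit+ and 2 in cKit-, among them Cpa3 with 4.47 and 5.04, Gata2, Hdc and Il1rl1 in cKit+ only, and Srgn, the granule proteoglycan of many blood cells, with 30.9 in cKit- only. The Hdc peak and the cKit- peak of Cpa3 lay outside these genes. Of 15 progenitor genes 5 (33.3%) and 7 (46.7%) were bound. Besides Gata2, Hoxa9 with 9.21 was found in cKit+ only. Of 15 lymphoid genes none was bound in cKit+, which allows a share of up to 20.4% by the Wilson interval, against 32.6% of all genes. In cKit- 4 were bound (Lck, Zap70, Blk and Il7r), 26.7% against 30.8% of all genes. Each rested on 1 peak with a score of 5.14 to 6.11, and that of Zap70 lay outside the gene. The lymphoid difference was -26.7 points, with an interval of -51.9 to -0.89 that leaves out 0, though the cKit- share was not above that of all genes.

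Fibroblast genes differed little in the number bound in each fraction. Of 90 genes, 55 were bound in cKit+ (61.1%, 50.8% to 70.5%) and 57 in cKit- (63.3%, 53.0% to 72.6%), with 46 in both, 9 in cKit+ only and 11 in cKit- only. The difference was -2.22 points, with an interval of -16.1 to 11.7. Both shares were well above the 32.6% and 30.8% of all genes bound in these fractions. These genes were also longer, with a median of 36.4 kb against 15.4 kb over all genes. Fibroblast genes were also bound more often in MEF, 92.2% against 50.3% of all genes. Of the 46 shared genes 27 (58.7%) had the higher sum in cKit- and 10 (21.7%) at least 2 times the cKit+ sum, near the 63.6% and 27.4% of all shared genes. Their median ratio was 1.11, compared with 1.27 for all shared genes and 2.76 for hematopoietic genes.

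Of 33 matrix genes, 20 were bound in each fraction (60.6%, against 32.6% of all genes in cKit+ and 30.8% in cKit-). Several collagens had more in cKit+. Col5a1 had 43.2 (39.0 to 47.6) from 9 peaks in cKit+ and 7.56 (5.38 to 10.3) from 1 peak in cKit-, and Col5a2 82.7 (76.9 to 88.8) and 38.7 (33.6 to 44.5). No peak of Col5a1 or Col5a2 in cKit+ overlapped one of cKit-. Col6a3 with 11.3 and Col1a1 with 6.05 were bound in cKit+ only. Col1a2 had 88.4 and 81.8, the crosslinking enzyme Lox 42.5 and 42.1, and Fstl1 58.6 and 67.7. Other matrix genes had more in cKit-. Thbs1, which encodes thrombospondin, a protein of fibroblasts and also of platelets and macrophages, had 89.8 (83.9 to 96.3) from 3 peaks in cKit+ and 319.1 (303.9 to 335.0) from a single peak of 13936 bp in cKit-. Its input density in cKit- was 1.97 times the median of the peaks there. Col3a1 had 33.5 and 95.2. Of the Col3a1 peaks 3 in each fraction lay outside the gene.

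Contractile and cytoskeletal genes were bound 11 of 15 in cKit+ (73.3%, against 32.6% of all genes) and 10 of 15 in cKit- (66.7%, against 30.8%). Cald1, which binds actin in smooth muscle and fibroblasts, had 88.7 from 15 peaks and 64.1 from 7, and Vcl, of focal adhesions, 110.4 and 87.5. Tagln with 8.94, Myl9 with 8.28 and Tpm2 with 3.98 were bound in cKit+ only, and Cnn2 with 7.85 and the X-linked Flna with 5.33 in cKit- only. The Tpm2 peak lay outside that gene. Vim had 42.3 (38.2 to 46.7) and 76.5 (69.0 to 84.3) and Lmna 26.9 and 69.1. The input density at Vim was 1.46 times the median of cKit+ peaks and 1.88 times that of cKit- peaks. Acta2 was near the calling limit in both, with 5.72 and 6.01 from 1 peak each, and had 256.4 in MEF and 610.9 in D4.

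Among 17 fibroblast receptors and surface proteins 11 (64.7%) and 13 (76.5%) were bound, against 32.6% and 30.8% of all genes. The integrin chain Itgb1 had 74.4 from 13 peaks in cKit+ and 41.5 from 5 in cKit-, whereas Tgfbr2 had 10.8 and 47.2. Cd44, a hyaluronan receptor that blood cells carry as well, had 127.2 and 181.2 from 16 peaks in each. Fap with 16.2, Cd248 with 7.95 and Pdgfra with 4.65 were bound in cKit- only. The Cd248 peak and all but 1 of the 3 Fap peaks lay outside these genes. Among 25 transcription factors 13 (52%) and 14 (56%) were bound, also above the shares of all genes. Tead1 had 50.8 from 8 peaks and 9.79 from 2, and its coactivator Yap1 30.6 and 6.40, while the related Wwtr1 had 30.1 and 67.5. Zeb2, which also serves blood cells, had 139.8 and 306.6, Runx2 138.5 and 149.2, and Prrx1 56.1 and 69.4. Jun with 7.41 was in cKit+ only, and Snai2 with 4.85, Twist2 with 4.94 and Srf with 7.17 in cKit- only. Twist1, Thy1, Snai1 and Prrx2 had no peak in either fraction although each was bound in MEF.

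Further lists were counted beside these. Of 36 housekeeping genes, 32 were bound in cKit+ (88.9%) and 28 in cKit- (77.8%), a difference of 11.1 points (-6.56 to 28.3). Of the 27 bound in both, 11 (40.7%) had at least 2 times the sum in cKit-, for example Actb with 32.0 and 80.9, and none had 2 times the sum in cKit+. The median ratio of housekeeping genes was 1.46, against 1.27 for all shared genes and 2.76 for hematopoietic genes. With the input subtracted it was 1.35, the same as for all shared genes, and 2.70 for hematopoietic genes. Genes of stromal support cells were bound 8 (53.3%) and 9 (60%) of 15, against 32.6% and 30.8% of all genes. Since 11 of the 15 were bound in MEF and 13 in D4, this list cannot show whether OP9 cells were carried over. Kitl, which encodes SCF, had 29.7 from 7 peaks in cKit+ and none in cKit-, Ebf1 27.7 and 11.9, and Cxcl12 10.5 in cKit- only. Endothelial genes were bound 5 and 4 of 15, neuronal genes 0 and 2 of 15 (0 allows up to 20.4%), and pluripotency genes 1 and 1 of 15, the one being Klf2.

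Over all genes, the highest summed scores among genes of cKit+ only belonged to Hnrnpk (52.8, from 1 peak, which overlapped a cKit- peak not counted for this gene), the adhesion protein gene Tns1 (41.4 from 8 peaks), Grlf1 (37.9), Zfp36 (37.7) and Pja2 (36.8). Zfp36, which encodes an mRNA decay factor of early response genes, had no peak in MEF, D4 or D0. Among genes of cKit- only they belonged to Gm10801 (282.9), Smo (249.8), Romo1 (131.4), Abca13 (109.0) and Mid1 (99.2). The input density at Gm10801 was 26.4 times, at Smo 14 times and at Mid1 2.91 times the median of cKit- peaks, and the peaks given to Romo1 lay outside that gene. Genes with the highest sums in both were Lpp (346.9 in cKit+, 331.8 in cKit-), Arid5b (219.1 and 224.1), Fndc3a (212.6 and 380.8), Rbms1 (204.6 and 375.8) and Utrn (201.2 and 132.6), all long genes. Ranked by cKit-, Cd47 (121.2 and 408.6), which encodes a broadly expressed surface protein that restrains phagocytes, and Ero1l (89.6 and 337.4) were among the top 5.

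The X chromosome was represented unequally. It held 89 cKit+ peaks (0.317%, 0.258% to 0.390%) and 261 cKit- peaks (1.02%, 0.902% to 1.15%), and 0.734% of the peaks in MEF and 1.51% in D4. The labels give no sex of the embryos, and whether the fractions came from the same culture is not stated. Without X and Y, 38 and 46 hematopoietic genes and 55 and 56 fibroblast genes were bound.

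The calling limits set how far these gene lists can be read. When peaks of both fractions had to reach the same score per 500 bp, that of the cKit- limit (4.85), 7214 cKit+ and 23807 cKit- peaks were left. Then 17 of 91 hematopoietic genes were bound in cKit+ and 46 in cKit-, and 30 and 55 of 90 fibroblast genes, while 3062 and 6564 of all genes were bound. At a fold of at least 3 over input, 1 hematopoietic gene was left in cKit+ and 9 in cKit-, and 10 and 16 fibroblast genes. Of all genes, 522 in cKit+ and 1063 in cKit- were then bound. The direction for hematopoietic genes was kept under both limits, but all genes leaned the same way under both. Fibroblast genes had the same direction under both, with a difference of -27.8 points (-40.7 to -13.2) at the common limit beside -31.9 (-43.9 to -18.2) for hematopoietic genes, so the count of bound genes did not separate these lists there.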

How the data were processed

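H3.3 ChIP-Seq libraries of cKit+ and cKit- cells were analysed from peak lists. Per the study's methods, reads were mapped to mm9 with STAR, allowing 2 mismatches and a single locus, and peaks were called with HOMER findPeaks (histone style) for each library against its own input; versions are not given in the sources used here. As deposited, each peak carries a score, a signal that the authors' caller scaled to 10 M tags. Its deposited fold, a ratio of its tags over those of the scaled input, is at least 2. Its deposited p-value (Poisson, at most 0.0001) was not adjusted. The labels' growth and treatment protocols describe only the other experiment.

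Overlaps, annotation and shares were computed in Python 3.11.15 with pandas 2.3.3, numpy 2.4.6 and scipy 1.17.1. Midpoints were placed by protein-coding transcripts of GENCODE vM1 (same build): promoter, 1000 bp upstream to 100 bp downstream of a start site, end, 100 bp upstream to 1000 bp downstream, exon, intron or intergenic. Overlaps and annotation were tested on simulated peaks. Shares of the genome leave out the first 3 Mb of chromosomes. Shares carry 95% Wilson intervals, differences intervals built from them. There was 1 library per group, so no test was made, and intervals cover counting error only. The members and lists were chosen with earlier results of these data known. Named were listed genes by role, those with the highest scores per class, the delivered factors, the top 5 genes per class, and others as stated. Gfi1 and Syk could not be matched. Alternatives were equal numbers of peaks, a fold of at least 3, autosomes, input density, an overlap of 0.5 of the peak, the gene holding the midpoint and, added after seeing the data, a common score limit. Some listed genes are counted but not reported here by name. The genome used was not masked, so the planned screen of printed windows for repeats was not applied.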

Additional observations from a re-analysis of the deposited data

How the results depend on the processing

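With fewer or stricter peaks the shares shifted, while the differences kept their sign. Shares are given for cKit+ and then cKit- peaks, and cKit+ and then cKit- genes. When both fractions kept the same number of highest peaks, the peak shares were 17.8% and 17.7% and the gene shares 69.8% and 70.0%, and ranked by score per kb 17.6% and 17.5%, and 69.7% and 70.0%. With a fold of at least 3 they were 1.78% and 0.818%, and 18.97% and 9.31%. With an overlap of 0.5 of the peak they were 10.6% and 10.3%. With a common score limit they were 28.3% and 8.57%, and 80.3% and 37.4%, the widest gap between the fractions among the alternatives. The hematopoietic difference moved outside its interval only with the common score limit, to -31.9 points, and so did the fibroblast difference, to -27.8 points. The difference in the share of exclusive peaks in MEF was -3.50 points at a fold of 3 and -7.54 with the common limit. In D4 it was -4.06 with the same number of highest peaks, -7.06 at a fold of 3 and -9.34 with the common limit. The cause was not tested, other than that fewer peaks enter under a stricter limit. Of 56 alternative values, 31 stayed within the interval of the reported value, 25 did not, and none of the differences changed sign. Autosomes only, removal of peaks with high input density and the gene holding the midpoint moved none of the values they applied to beyond its interval. No paired analysis was possible because each fraction had 1 library and the result comes from no test. Depth and weak enrichment limit the absence of a peak, which cannot be read as an absence of H3.3.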

Other observations

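Among the genes without a peak in MEF or D4, several with high summed scores were in no list above; they were picked after the values were known. Bound in both fractions were Gda, a guanine deaminase gene, with 28.8 from 5 peaks in cKit+ and 105.2 from 15 in cKit-, Slfn2 with 10.3 and 52.2, Rgs18, a regulator of G protein signalling in blood cells, with 5.67 and 29.6, and the leukocyte inhibitory receptor gene Lair1 with 4.36 and 22.2. Gda, Rgs18 and Lair1 had no peak in D0 fibroblasts either. Of cKit+ only genes in this group, Zfp36 with 37.7 and Tlcd2 with 32.0 were highest, followed by Gm10643 with 15.7, though the one peak of Tlcd2 overlapped a cKit- peak not counted for this gene.

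Of 67 genes whose symbols name them as histone genes, 7 were bound in both fractions, 10 in cKit+ only and 25 in cKit- only, where over all genes these classes make up 22.3%, 10.3% and 8.53%, while 42 were bound in MEF and 29 in D4. Hist1h2bg had 47.9, Hist1h2an 44.5 and Hist1h3g 30.7 in cKit- only, and Hist1h2bb had 13.7 in cKit+ and 55.4 in cKit-. The input density of Hist1h2bg and Hist1h2an was 2.095 and 2.08 times the median of cKit- peaks. Histone genes are near-identical copies, so with unique mapping their counts are uncertain, and the set was chosen after values had been seen.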
